A study of Mus musculus with 12 samples.

Results

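The 8 mature mouse miRNAs described here were chosen by name and not by their measured values, though with earlier results of these data known. Of these, 6 are processed from introns of Htr2c (mmu-miR-448-3p, mmu-miR-764-5p, mmu-miR-764-3p, mmu-miR-1264-3p, mmu-miR-1298-5p and mmu-miR-1912-3p), and mmu-miR-204-5p and mmu-miR-211-5p stand beside them as miRNAs known from the choroid plexus. All 8 were found among the 1422 mature and predicted miRNAs that the 12 small RNA libraries list. Small RNA of 18 to 30 nt was sequenced from the medial prefrontal cortex (PFC) of adult male C57BL/6 mice after cocaine-conditioned place preference (CPP), a test in which an animal learns to prefer the place where it received the drug. SS mice were given saline in place of both agents. In CS the drug was cocaine (20 mg/kg), in MS it was l-methionine (1 g/kg, 2 times a day for 10 days) with saline for conditioning, and MC combined that l-methionine course with cocaine. This l-methionine dose is that of the sample labels and the methods, and a figure legend of the study states another. The cortex was taken 2 h after the CPP test on day 10, also in the controls, and each group has 3 libraries, each from RNA pooled from 2 animals. The comparisons ask what cocaine changed (CS vs SS), what l-methionine changed without cocaine (MS vs SS) and with it (MC vs CS), what cocaine changed under l-methionine (MC vs MS), and whether the cocaine difference depended on l-methionine (the interaction).

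Htr2c encodes a serotonin receptor that couples to G proteins and is known for very high expression in the epithelium of the choroid plexus, the tissue of the brain ventricles that secretes cerebrospinal fluid, and for lower expression in sets of neurons. A miRNA in an intron is cut from a hairpin in the host transcript. A strand of it is loaded into an Argonaute protein and pairs with target mRNAs mainly through its seed, bases 2 to 8. The miR-204 and miR-211 pair lies in introns of the ion channel genes Trpm3 and Trpm1, and miR-204 is abundant in choroid plexus and retinal pigment epithelium. The libraries hold PFC alone, so whether the counts below came from choroid plexus epithelium, neurons or other cells was not tested.

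The mature sequences of all 8 miRNAs are shown because their seeds decide which of them could share targets and because 2 of them can be confused in counting. They are from RefSeq on GRCm38.p6, 5′ to 3′ on the plus strand, with the seed in capitals. Positions follow in the next paragraph.
mmu-miR-764-5p: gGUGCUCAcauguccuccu
mmu-miR-764-3p: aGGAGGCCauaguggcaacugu
mmu-miR-1912-3p: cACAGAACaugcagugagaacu
mmu-miR-1264-3p: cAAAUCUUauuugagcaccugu
mmu-miR-1298-5p: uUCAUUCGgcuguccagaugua
mmu-miR-448-3p: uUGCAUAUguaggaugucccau
mmu-miR-204-5p: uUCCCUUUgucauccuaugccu
mmu-miR-211-5p: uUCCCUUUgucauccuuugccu

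The 8 miRNAs carry 7 different seeds, and the 6 hosted in Htr2c share none with each other. The pair miR-204-5p and miR-211-5p has the same seed and differs at 1 of 22 positions, A17U counted from the 5′ end with the base of miR-204-5p first. How reads were divided between near-identical miRNAs in the deposited counts is not given in the sources used here, and miR-211-5p, the far less abundant of the pair, is therefore uncertain. Outside the 8, the RefSeq table holds the seed of miR-204-5p in mmu-miR-7670-3p and that of miR-764-3p in mmu-miR-7062-5p.

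Htr2c lies on chromosome X from 146962513 to 147197277 (GRCm38, GENCODE M21, plus strand). The 5 hairpins of the hosted members span 156.1 kb of the 234.8 kb gene. Mir764 (chrX:147002259-147002366), Mir1912 (chrX:147009441-147009527), Mir1264 (chrX:147010601-147010686) and Mir1298 (chrX:147064905-147065002) lie in intron 2 of the 5 introns of transcript Htr2c-201, before the start of the coding sequence. Mir448 (chrX:147158210-147158321) lies in intron 4, after it. All 5 hairpins are intronic in all 4 coding transcripts. Mir1912 ends 1073 bases before Mir1264 begins, whereas 54218 bases separate Mir1264 from Mir1298 and 93207 bases separate Mir1298 from Mir448. Mir204 (chr19:22750605-22750672) is in intron 6 of Trpm3-201 and Mir211 (chr7:64205806-64205911) in intron 6 of Trpm1-201.

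**Figure D1:**
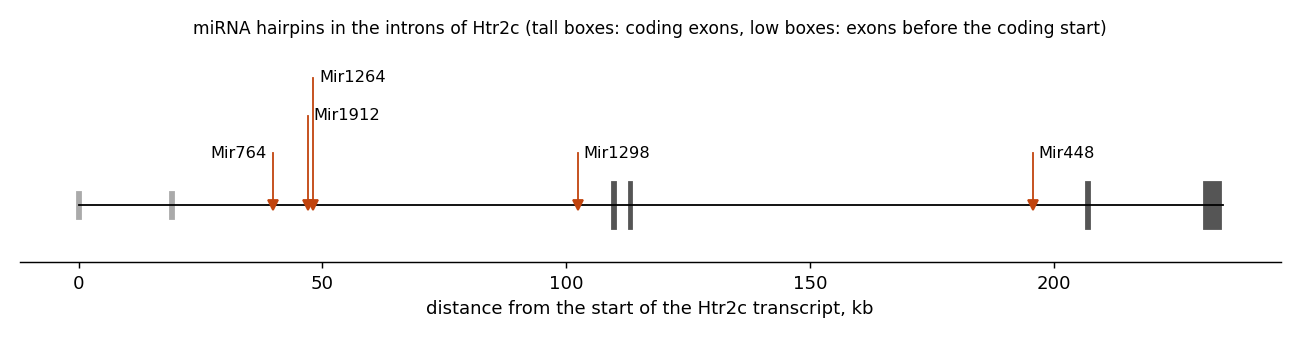
Map of the Htr2c transcript Htr2c-201 drawn to scale, with the distance from its start in kb on the horizontal axis, exons as boxes and the 5 miRNA hairpins as triangles. Of the hairpins, 4 stand in the intron before the first coding exon, from 39.75 kb to 102.5 kb, and Mir448 stands at 195.7 kb.

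Library totals ran from 7.77 to 11.1 in units of 1000000 counts (median 9.36). Of these counts 56.1% to 67.9% were on miRNAs, and levels are given as counts per 1000000 counts of the library (CPM). At this depth 3 counts, the most that a count of 0 allows for, correspond to 0.271 to 0.386 CPM in a library, a floor that covers counting error only. Every pair of libraries differed by more than sampling noise. By the profiles of 125 miRNA precursor families, the libraries were clustered into 3 sets that cross the groups and that no label names. The number of sets was fixed at 3 and not estimated from the data. Set A comprised CS replicates 8 and 9 with SS replicate 12. Set C comprised MC replicates 16 and 17 with CS replicate 10, and the other 6 libraries formed set B. MC replicate 16 stood apart, with the lowest total count, the lowest miRNA share and the lowest TMM factor (0.675, where the others ran from 0.826 to 1.26). Of marker miRNAs, the 5 neuronal ones were counted in every library, with a summed level of 105000 to 278200 CPM.

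miR-204-5p was the most abundant by far, with a mean of 1807 CPM ± 496 (SD, n = 12 libraries), rank 56 of the 1422 miRNAs. miR-1298-5p followed with 15.9 ± 13.3 CPM (rank 315), miR-211-5p with 5.26 ± 1.68 CPM (rank 398) and miR-764-5p with 1.22 ± 0.551 CPM (rank 583). The other 4 were at or near the floor. miR-448-3p had 38 counts over the 12 libraries, miR-1264-3p 28, miR-764-3p 12 and miR-1912-3p 1. In their order, miR-204-5p was above miR-1298-5p in all 12 libraries without overlap, and miR-1298-5p was above miR-211-5p in 11 of 12. miR-211-5p was above miR-764-5p, and miR-764-5p above miR-448-3p, in all 12 libraries, although the ranges over libraries overlapped. miR-448-3p and miR-1264-3p could not be ordered, since miR-448-3p was higher in 6 of 12 libraries. miR-1264-3p was higher than miR-764-3p in 8 of 12. These are read counts of different sequences, which ligate and amplify unequally, so the order is that of the counts.

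**Figure D2:**
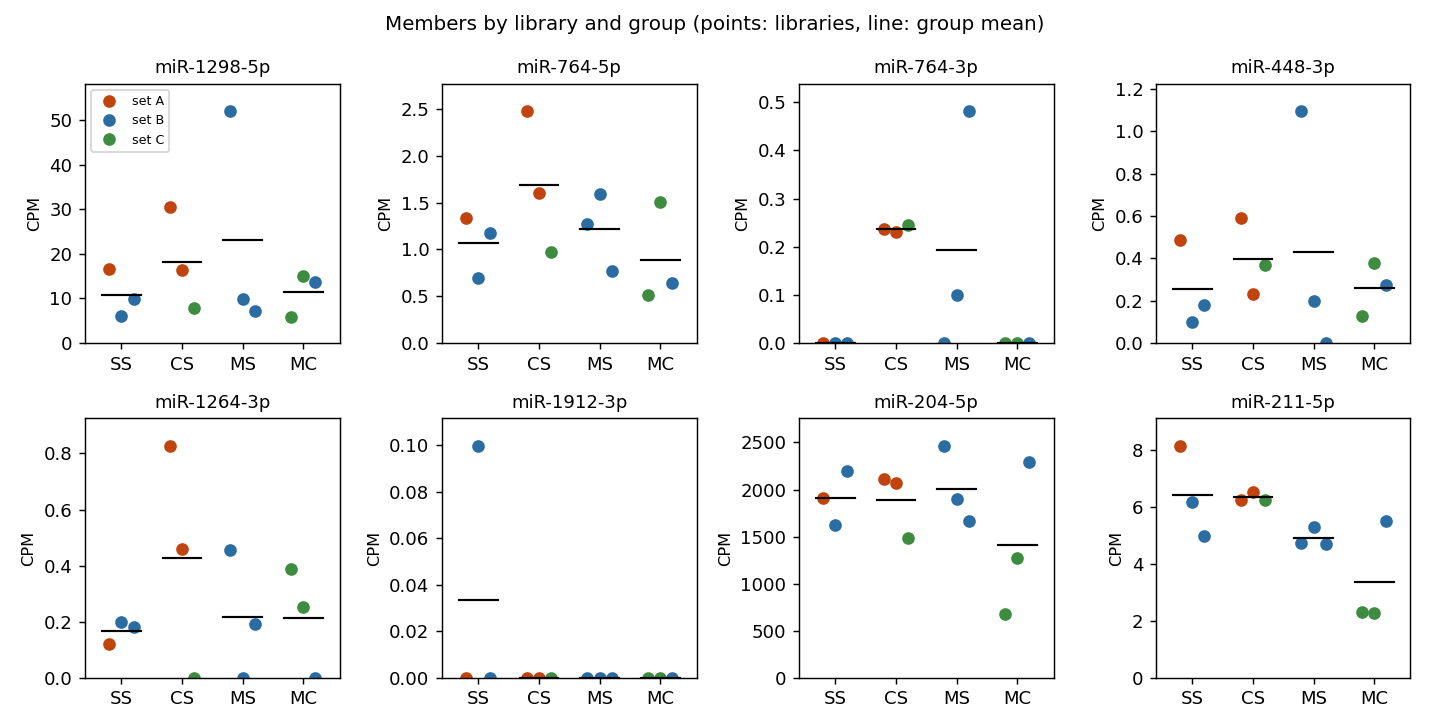
Level of each of the 8 miRNAs in CPM (vertical axes, each from 0 with its own range) in the 3 libraries of SS, CS, MS and MC, with points coloured by library set and a line at the group mean. For miR-1298-5p the MS 3 library at 52.0 CPM stands above all others, and for miR-211-5p the libraries MC 16 and MC 17, at 2.32 and 2.26 CPM, stand below all others.

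Summed over the 12 libraries, miR-1298-5p had the most counts of the members and arms from Htr2c introns. In MS replicate 23, however, miR-1264-5p had 89 counts against 75 for miR-1298-5p. The 6 hosted miRNAs leave out miR-1264-5p and miR-448-5p, the more abundant arms of their hairpins. Of the counts of these 6, miR-1298-5p made up between 83.1% and 94.8% in every library (median 86.5%). It was measured at 16.5, 6.08 and 9.75 CPM in SS replicates 12, 13 and 14, at 30.5, 16.3 and 7.82 CPM in CS replicates 8, 9 and 10, at 52.0, 9.79 and 7.22 CPM in MS replicates 3, 4 and 23, and at 5.79, 14.9 and 13.7 CPM in MC replicates 16, 17 and 20. The highest library exceeded the lowest 8.97-fold, and every group overlapped every other. The spread lay within groups as much as between them. In MS it came from replicate 3, and in CS the level of replicate 8 exceeded that of replicate 10 by 3.89-fold. By library set, the 3 of set A ran from 16.3 to 30.5 CPM and those of set C from 5.79 to 14.9 CPM (median 7.82). Set B ran from 6.08 to 52.0 CPM (median 9.77), with MS replicate 3 as its highest.

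The group means of miR-1298-5p were 10.8 ± 5.30 CPM for SS, 18.2 ± 11.4 for CS, 23.0 ± 25.1 for MS and 11.5 ± 4.97 for MC (SD, n = 3 libraries). With edgeR's quasi-likelihood test the log2 fold change was 0.43 in CS vs SS (SE 0.696, adjusted p = 0.994, Benjamini-Hochberg over 780 miRNAs) and 0.90 in MS vs SS (SE 0.698, adjusted p = 0.747). It was -0.54 in MC vs CS (SE 0.697, adjusted p = 0.731) and -1.002 in MC vs MS (SE 0.699, adjusted p = 0.687). None of these differences exceeded the spread between libraries, and the 95% intervals were wide, from -0.63 to 2.43 in MS vs SS. MS replicate 3 set the direction in both comparisons with MS. Without it, the log2 fold change was -0.61 in MS vs SS and 0.50 in MC vs MS. Without CS replicate 8, that of CS vs SS was 0.013. Within library sets, the log2 ratio of mean CPM was 0.50 in CS vs SS (set A, 2 libraries against 1), 1.54 in MS vs SS (set B, 3 against 2), 0.41 in MC vs CS (set C, 2 against 1) and -0.74 in MC vs MS (set B, 1 against 3), values without a test. In MC vs CS the sign within the set was thus opposite to that of the full comparison.

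In MS replicate 3 other miRNAs and several marker lists were high as well. Its miR-448-3p level (1.09 CPM, 12 counts), its miR-204-5p level (2461 CPM) and its level of the mir-204 precursor family (144 CPM) were the highest of the 12 libraries. The 11 marker miRNAs of ciliated or epithelial cells, among them the miR-34b/c, miR-449 and miR-200 families, summed to 896 CPM in this library, against 198 and 351 CPM in MS replicates 4 and 23 and 168 to 201 CPM in SS. All 11 were counted somewhere and 10 in every library, and miR-449c-5p was at 0 in 5 libraries. The highest sum, 1054 CPM, was in CS replicate 10, where miR-1298-5p was at 7.82 CPM. MS replicate 3 also held the highest level of the liver miRNA miR-122-5p, 2494 CPM against 173 CPM in the next library. Its sum over the 3 red blood cell markers, 3972 CPM, was the highest as well, with 3595 CPM in the next library. What part these cells had in the levels of miR-1298-5p was not tested, and in bulk tissue fewer cells of a type cannot be told apart from less RNA per cell.

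miR-764-5p, the only other hosted member that passed the filter on low counts (5 counts in at least 3 libraries), was measured with 4 to 21 counts per library. Its level was 1.34, 0.697 and 1.17 CPM in SS replicates 12, 13 and 14 and 2.48, 1.61 and 0.978 CPM in CS replicates 8, 9 and 10. In MS replicates 3, 4 and 23 it was 1.28, 1.60 and 0.770 CPM, and in MC replicates 16, 17 and 20 it was 0.515, 1.51 and 0.641 CPM. The highest value was in CS replicate 8 and the lowest in MC replicate 16, and all groups overlapped. The largest of its 4 fold changes was that of MC vs CS, with a log2 of -0.82 (SE 0.451, adjusted p = 0.577, edgeR), and within set C the log2 ratio was 0.047. In CS vs SS it was 0.37 (SE 0.439, adjusted p = 0.994), in MS vs SS -0.061 (SE 0.442, adjusted p = 0.991) and in MC vs MS -0.38 (SE 0.452, adjusted p = 0.815). The sign in MS vs SS depended on the scaling, being 0.19 without TMM factors.

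The 4 hosted miRNAs under the filter are given mainly by their counts. miR-448-3p had counts in 11 of 12 libraries, with 4, 1 and 2 in the SS libraries, 5, 2 and 3 in those of CS, 12, 2 and 0 in those of MS and 1, 3 and 3 in those of MC. miR-1264-3p had 1, 2 and 2 counts in the SS libraries, 7, 4 and 0 in those of CS, 5, 0 and 2 in those of MS and 3, 2 and 0 in those of MC. Neither separated any pair of groups. miR-764-3p, the arm opposite to miR-764-5p, had 2 counts in each of the 3 CS libraries and 0, 1 and 5 counts in MS replicates 3, 4 and 23, and it was at 0 in all SS and all MC libraries. Each count in CS is below the floor of 3 counts, so that an absence in SS and MC was not detectable at this depth. When every miRNA with a count was tested with edgeR, the unadjusted p of miR-764-3p was 0.0348 in CS vs SS, 0.0444 in MS vs SS, 0.0342 in MC vs CS, 0.0436 in MC vs MS and 0.00635 for the interaction. The adjusted p in these tests ran from 0.730 to 1. They reuse the same 12 libraries, so they are not separate observations. The share of all miRNAs with such an unadjusted p is not given here without the filter. miR-1912-3p had 1 count in SS replicate 13 and none elsewhere. Over the summed depth of the 12 libraries, 112.7 in units of 1000000 counts, the floor of 3 counts is at 0.0266 CPM.

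Beside the members, 8 other arms were looked for, namely the opposite arms of the members' hairpins and both arms of mir-1911, a hairpin not placed here. Counts were found for 5 of them (miR-448-5p, miR-1264-5p, miR-1298-3p, miR-1912-5p and miR-204-3p), and none for miR-1911-5p, miR-1911-3p and miR-211-3p, which allows up to the same floor of 3 counts. For mir-1264 the 5p arm was the abundant strand, with 794 counts against 28 for miR-1264-3p, a 3p share of 3.41% (95% Wilson interval 2.37 to 4.88). miR-1264-5p was at 7.04 ± 2.20 CPM (SD, n = 12), above miR-211-5p, and thus came next after miR-1298-5p among the members and arms from Htr2c introns. For mir-448 the 5p arm also held more counts, 93 against 38, a 3p share of 29.0% (21.9 to 37.3). In MS replicate 3 that share was 75.0% (50.5 to 89.8), from 12 and 4 counts. For mir-1298 and mir-764 the 5p arms dominated, with 3p shares of 3.59% (2.84 to 4.53) and 8.16% (4.73 to 13.7). These intervals treat reads as independent molecules, and they cover counting error only.

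**Figure D3:**
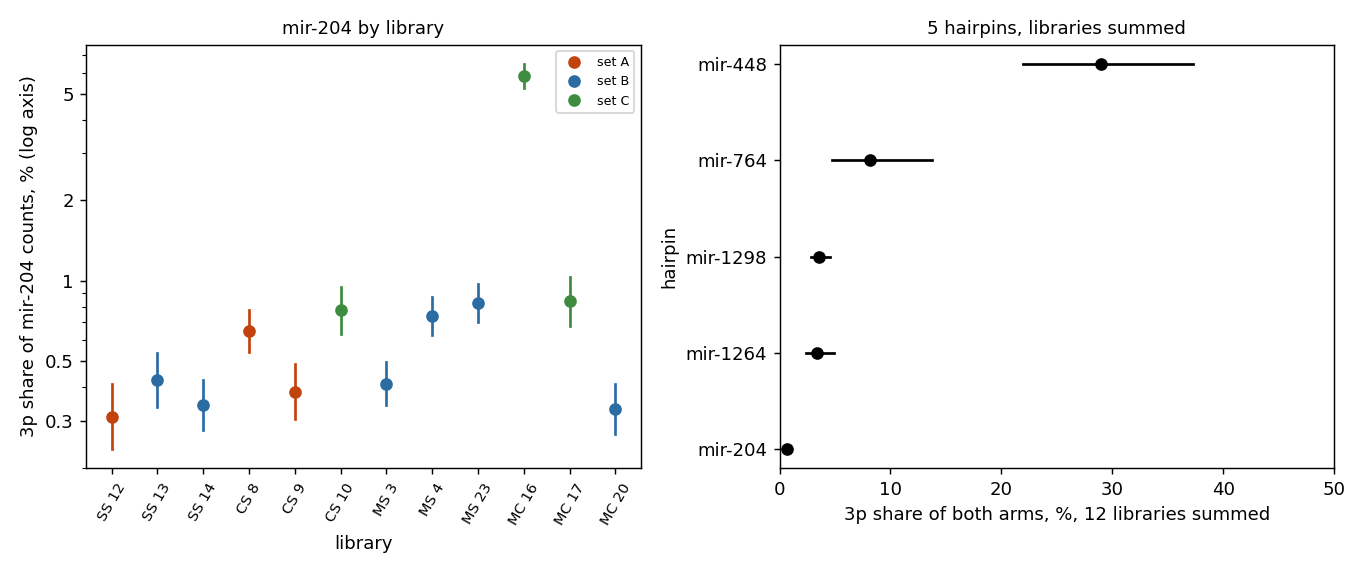
Share of the 3p arm in the counts of both arms of a hairpin, with 95% Wilson intervals as lines. On the left, the mir-204 share by library (log axis, colours for library sets) lies between 0.311% and 0.839% in 11 libraries and at 5.82% in MC 16. On the right, with the 12 libraries summed, mir-448 has the largest 3p share of the 5 hairpins drawn, 29.0%, and mir-1912, with 1 count on each arm, is left out.

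miR-204-5p was measured at 1910, 1625 and 2201 CPM in SS replicates 12, 13 and 14, at 2111, 2073 and 1485 CPM in CS replicates 8, 9 and 10, at 2461, 1903 and 1667 CPM in MS replicates 3, 4 and 23, and at 681, 1275 and 2289 CPM in MC replicates 16, 17 and 20. The low libraries were MC replicates 16 and 17 and CS replicate 10, which make up library set C, and MC replicate 20 was among the highest, so that MC overlapped all other groups. The group means were 1912 ± 288, 1890 ± 351, 2010 ± 408 and 1415 ± 813 CPM in SS, CS, MS and MC (SD, n = 3). The log2 fold change was -0.28 in CS vs SS (95% interval -0.88 to 0.33), -0.16 in MS vs SS (-0.76 to 0.45), -0.37 in MC vs CS (-0.98 to 0.23) and -0.49 in MC vs MS (-1.10 to 0.11), with adjusted p from 0.591 to 0.994 (edgeR). These are the narrowest intervals of the members, with between 5292 and 26992 counts per library. Within set B the MC vs MS log2 ratio was 0.19, and within set C that of MC vs CS was -0.60. Without TMM factors the MS vs SS value was 0.073.

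The opposite strand, miR-204-3p, had another order of libraries than miR-204-5p. Its level was 5.96, 6.97 and 7.58 CPM in the SS libraries, 13.8, 8.04 and 11.6 CPM in those of CS, 10.2, 14.2 and 13.9 CPM in those of MS and 42.1, 10.8 and 7.61 CPM in those of MC. In CPM without TMM factors, all CS libraries and all MS libraries were above all SS libraries. The same held for 12.3% of the 780 tested miRNAs for CS and 18.7% for MS. With the TMM factors, which the fold changes use, CS replicate 9 (factor 1.04) fell below SS replicates 13 and 14 (0.826 and 0.966), so that CS and SS overlapped. The edgeR log2 fold changes were 0.44 in CS vs SS (SE 0.679, adjusted p = 0.994) and 0.65 in MS vs SS (SE 0.678, adjusted p = 0.805). miR-1298-3p, with 1 to 12 counts per library, was likewise higher in CPM in all MS than in all SS libraries. Its log2 fold change was 0.90 (SE 0.770, adjusted p = 0.775, edgeR). Divided by the TMM factors, its level in SS replicate 13 (0.598 CPM, factor 0.826) was above that in MS replicate 4 (0.799 CPM, factor 1.19), so that these groups overlapped. miR-448-5p was lower in all MS libraries, at 4 counts each, than in all SS libraries, at 10, 7 and 15 counts, as were 4.10% of the tested miRNAs (log2 fold change -1.70, SE 0.70, unadjusted p = 0.0330, adjusted p = 0.486, edgeR). MC replicate 16 held both the highest miR-204-3p level and the lowest miR-204-5p level, so that the 3p arm made up 5.82% (5.24 to 6.46) of its mir-204 counts against 0.311% to 0.839% in the other 11 libraries.

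miR-211-5p was measured with 18 to 67 counts per library. It was at 8.14, 6.18 and 4.97 CPM in SS replicates 12, 13 and 14, at 6.26, 6.55 and 6.23 CPM in CS replicates 8, 9 and 10, at 4.74, 5.29 and 4.72 CPM in MS replicates 3, 4 and 23, and at 2.32, 2.26 and 5.50 CPM in MC replicates 16, 17 and 20. All MC libraries lay below all CS libraries, the only such separation among the 4 members tested and one shared by 2.05% of the 780 miRNAs. The log2 fold change of MC vs CS was -0.82 (SE 0.350, 95% interval -1.59 to -0.055), with an unadjusted p of 0.0378 and an adjusted p of 0.577 (edgeR), so that it was not past the threshold. Leaving out 1 library gave values from -1.17 (MC replicate 20) to -0.54 (MC replicate 17). Within set C the log2 ratio was -1.45 between MC replicates 16 and 17 and CS replicate 10. The neuronal marker list summed to 105000, 141800 and 151700 CPM in the MC libraries and to 149100, 252500 and 246100 CPM in CS, with overlap. The list of ciliated or epithelial cells summed to 93.7, 324 and 496 CPM in MC and to 248, 318 and 1054 CPM in CS, also with overlap. The part of these cells in the difference was not tested. In the other comparisons the log2 fold change of miR-211-5p was -0.27 in CS vs SS (SE 0.343, adjusted p = 0.994), -0.64 in MS vs SS (SE 0.344, adjusted p = 0.598) and -0.46 in MC vs MS (SE 0.349, adjusted p = 0.718). miR-204-5p exceeded miR-211-5p between 235-fold and 565-fold in CPM (median 345).

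Of the 8 members, 4 passed the filter and were tested together with 776 other miRNAs. The threshold for a call was an adjusted p no larger than 0.05 with a log2 fold change of 1 or more in either direction. For the interaction the limit on the fold change was left out. In CS vs SS, MS vs SS, MC vs CS, MC vs MS and the interaction, 0 of the 4 were called, as were 0 of the 780 miRNAs (0%) by edgeR. An unadjusted p under 0.05 was found for 22, 75, 58, 65 and 34 of the 780 in these 5 tests, among them 1 member, miR-211-5p in MC vs CS. DESeq2 called 7 miRNAs in MS vs SS and 0 in the other tests, and no member. The median log2 fold change of the 4 members was 0.050 in CS vs SS, -0.11 in MS vs SS, -0.68 in MC vs CS and -0.48 in MC vs MS, and over all 780 miRNAs it was 0.035, -0.032, 0.079 and 0.047. These medians had no test. Within set C the log2 ratios of MC vs CS had both signs, 0.047 for miR-764-5p, 0.41 for miR-1298-5p, -0.60 for miR-204-5p and -1.45 for miR-211-5p. MC vs CS and CS vs SS share the CS libraries, and MC vs MS and MC vs CS share the MC libraries.

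**Figure D4:**
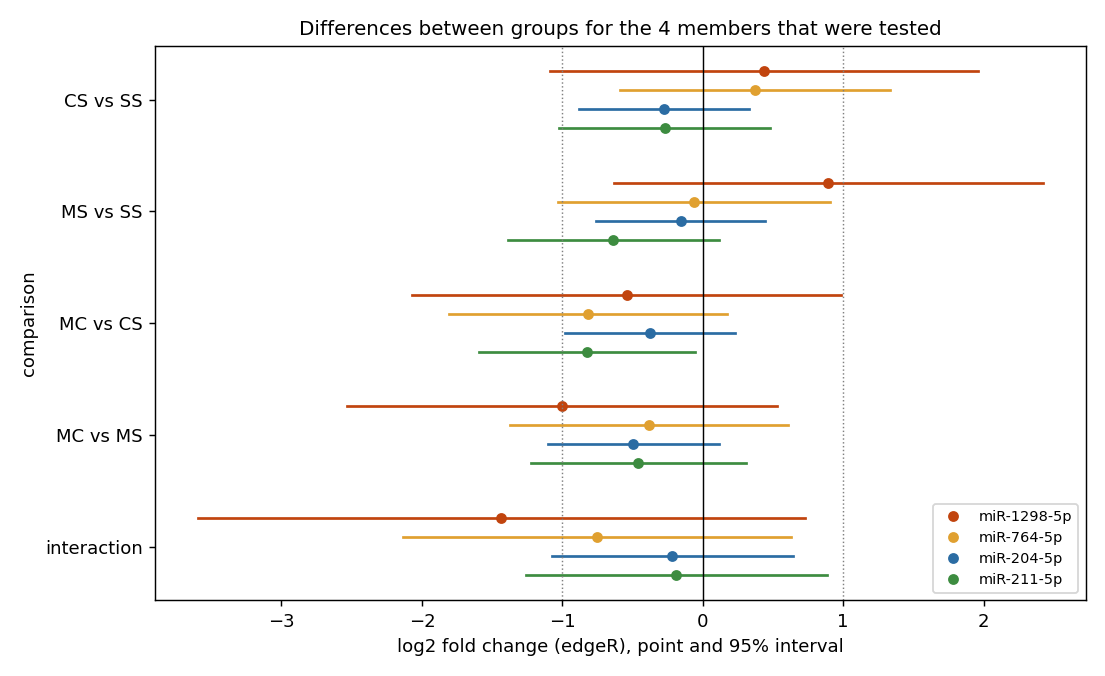
Log2 fold change (horizontal axis, point) with its 95% interval (line) for the 4 members that passed the filter, in the 4 comparisons and the interaction, from edgeR over 12 libraries. Dotted lines mark a log2 fold change of 1 in either direction. All intervals include 0 except that of miR-211-5p in MC vs CS, and those of miR-1298-5p are the widest.

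The interaction, in which the cocaine difference under l-methionine was compared with that without it, was -1.44 for miR-1298-5p (log2, SE 0.986, adjusted p = 0.810, edgeR). The difference was not past the threshold and rested on MS replicate 3, without which it was 0.072. For miR-764-5p the interaction was -0.75 (SE 0.630, adjusted p = 0.826), for miR-204-5p -0.22 (SE 0.390, adjusted p = 0.882) and for miR-211-5p -0.19 (SE 0.488, adjusted p = 0.923). The 95% intervals were -3.60 to 0.72, -2.14 to 0.63, -1.07 to 0.64 and -1.26 to 0.88.

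Whether the members were high in the same libraries was examined over the 6 pairs of the 4 tested members, on log2(CPM + 0.5). miR-1298-5p and miR-764-5p, from the same intron, had a Pearson's r of 0.64 over the 12 libraries (permutation p = 0.0232, adjusted over the 6 pairs 0.0695) and a Spearman's rho of 0.72 (permutation p = 0.0101, adjusted 0.0603). Without CS replicate 8 and MC replicate 16, the libraries farthest from the median of miR-764-5p, r was 0.43. Within set B it was 0.37 over 6 libraries (exact permutation p = 0.540). miR-1298-5p and miR-204-5p, from different chromosomes, had an r of 0.59 (permutation p = 0.0486, adjusted 0.0972) and a rho of 0.65 (permutation p = 0.0252, adjusted 0.0756), and r was 0.53 without CS replicate 8 and MS replicate 3. Within set B their r was 0.82 (exact permutation p = 0.00556, adjusted 0.0333) and their rho 0.94 (exact permutation p = 0.0167, adjusted 0.10). On TMM-scaled levels the r over 12 libraries was 0.40 (permutation p = 0.190). Sets A and C, of 3 libraries each, were too small for a value.

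**Figure D5:**
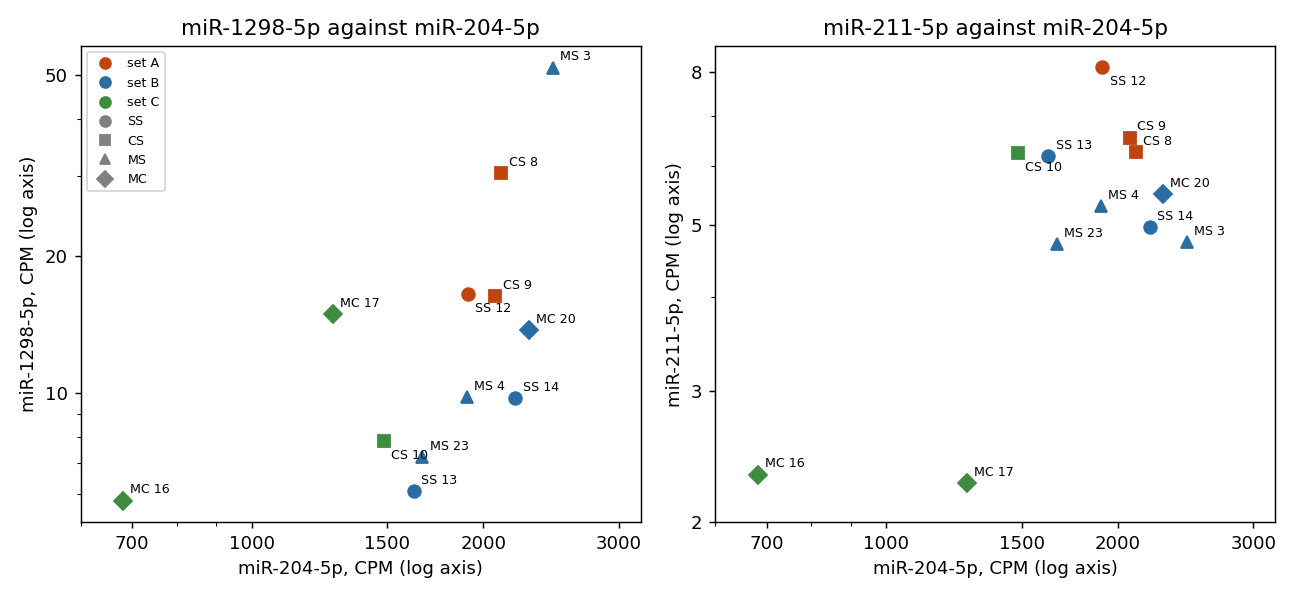
Levels of miR-1298-5p (left) and miR-211-5p (right) against miR-204-5p in the 12 libraries, in CPM on log axes, with colours for library sets and symbols for groups. The 6 libraries of set B lie along a rising line on the left (r = 0.82) and do not on the right (r = -0.39), where MC 16 and MC 17 stand apart at the lower left.

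The near-identical pair miR-204-5p and miR-211-5p had an r of 0.70 over the 12 libraries (permutation p = 0.0176, adjusted 0.0695) but a rho of 0.31 (permutation p = 0.330, adjusted 0.396). That relation rested on MC replicates 16 and 17, without which r was -0.26, and within set B it was -0.39 (exact permutation p = 0.436). miR-764-5p had an r of 0.47 with miR-204-5p (rho 0.26, permutation p = 0.127 and 0.416) and of 0.27 with miR-211-5p (rho 0.38, permutation p = 0.387 and 0.229). miR-1298-5p had an r of 0.19 with miR-211-5p (rho 0.36, permutation p = 0.555 and 0.257). Without their 2 farthest libraries these 3 values of r were 0.0092, -0.18 and 0.24.

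Of the 776 tested miRNAs outside the members, the 5 whose log2(CPM + 0.5) over the 12 libraries was most like that of miR-1298-5p were miR-25-3p (r = 0.85), miR-20a-5p (0.84), miR-491-5p (0.83), miR-1941-3p (0.82) and miR-17-5p (0.80). Over set B their r ran from 0.73 to 0.97, and the median r to all 776 was 0.22. miR-1264-5p, from the same intron as miR-1298-5p, had an r of 0.65 with it (0.615 over set B). For miR-448-5p that r was 0.32 (-0.34 over set B), and for miR-1298-3p, the opposite arm, 0.28 (0.22). With miR-204-5p, from another chromosome, miR-1264-5p had an r of 0.61 (0.12 over set B). For miR-204-5p the 5 most like it were miR-450a-5p (0.95), miR-434-3p (0.94), miR-146b-5p (0.93), miR-455-5p (0.91) and let-7c-1-3p (0.91), over a median of 0.26. Over set B their r ran from 0.64 to 0.93. The opposite arm miR-204-3p had an r of -0.76 with miR-204-5p. Over set B, which leaves out MC replicate 16, it was -0.23. miR-450a-5p and let-7c-1-3p were at 0.386 and 0.258 CPM in their lowest library. These correlations are descriptions over libraries that share depth and library set.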

How the data were processed

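Small RNA was sequenced in 12 PFC libraries, 3 for each of SS, CS, MS and MC, grouped by the sample labels. The authors size-selected RNA of 18 to 30 nt, added poly-A, sequenced 50 nt reads, removed reads under 16 nt and mapped them with AASRA. The processing notes name Bowtie and mm10. The count deposited by the authors is the number of reads per small RNA, without normalization. The deposited TPM is the authors' count divided by the library total and multiplied by 1000000, and it matched within 0.005. It was used as a check of the levels.

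Counts of mature and predicted miRNAs were tested by the quasi-likelihood F-test of edgeR 4.0.16, run in R 4.3.3 (library size from the total count, TMM factors, 1 coefficient per group, at least 5 counts in at least 3 libraries, Benjamini-Hochberg adjustment). Standard errors were derived from the F statistic. Correlations used log2(CPM + 0.5) and two-sided permutation tests (100000 permutations for 12 libraries, all pairings for 6). The rest was done in Python 3.11.15 with matplotlib 3.10.9, scipy 1.17.1, numpy 2.4.6 and pandas 2.3.3. Positions are from GENCODE M21 and sequences from RefSeq, where all 8 members matched.

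Each library is a pool of 2 animals, so p-values measure the spread between pools. Library sets were made by clustering the log profiles of 125 precursor families, with the number of sets fixed at 3. Among 66 pairs of libraries, the smallest chi-square per degree of freedom over 317 miRNAs was 255.1. The members, the marker lists and the sets were chosen with earlier results of these data known. Named were all 8 members, the other arms of their hairpins, both arms of mir-1911, the members' precursor families (mir-204 alone was listed), and the 5 miRNAs most like miR-1298-5p and miR-204-5p. The alternatives were DESeq2 1.42.0, other scalings, filters, fold limits, libraries and features, library set as a covariate, pseudocounts of 0.1 and 1, and each library left out. Leaving out libraries in the correlations was added after seeing the data. On data simulated for CS vs SS, edgeR called 0 of 755 unchanged miRNAs, recovered 67.4% of 193 miRNAs changed by a log2 of 2 (751 tested, 4 false calls) and 91.8% of 194 changed by a log2 of 4 (758 tested, 8 false calls). The simulated libraries differed in total count and random spread alone, without library sets or single deviating libraries. Changes smaller than a log2 of 2, as those of the tested members were, were not simulated, so their recovery is not known.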

Additional observations from a re-analysis of the deposited data

How the results depend on the processing

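In CS vs SS, MS vs SS, MC vs CS, MC vs MS and the interaction, 0 members were called under all 103 alternatives, each setting being counted once per test. The smallest adjusted p of a member was 0.228 (edgeR). Of 412 fold changes of the tested members under alternatives, 15 had the opposite sign, and 11 of the 20 fold changes never did. The setting without a fold limit reused the main fit, so its fold changes could not differ. Some libraries left out were outside the comparison, which also limits what these shares show. With library set as a covariate, the log2 fold change was 0.020 for miR-204-5p and -0.11 for miR-764-5p in CS vs SS, 0.24 for miR-764-5p in MS vs SS and 0.34 for miR-1298-5p in MC vs CS. Without TMM factors it was 0.073 for miR-204-5p and 0.19 for miR-764-5p in MS vs SS, and with at least 10 counts 0.0021 for miR-764-5p. Leaving out a library gave -0.61 to 1.36 for miR-1298-5p and -0.27 to 0.12 for miR-764-5p in MS vs SS, -1.43 to 0.50 for miR-1298-5p in MC vs MS, and -1.89 to 0.072 for miR-1298-5p and -0.53 to 0.095 for miR-211-5p in the interaction. The count of all miRNAs called in MS vs SS was 7 with DESeq2, 3 in a fit over 6 libraries and 5 without MC replicate 16. The cause of these changes was not tested.

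The correlation of miR-764-5p and miR-1298-5p was 0.52 on TMM-scaled levels and 0.37 within set B, and 0.54 to 0.81 with a library left out. That of miR-1298-5p and miR-204-5p was 0.59 (permutation p = 0.0507) with a pseudocount of 1, 0.40 on TMM-scaled levels and 0.53 to 0.64 with a library left out. Within set B the correlations of miR-211-5p were -0.41 with miR-764-5p, -0.47 with miR-1298-5p and -0.39 with miR-204-5p. With a library left out they were -0.026 to 0.52, -0.041 to 0.31 and 0.45 to 0.75, and for miR-764-5p and miR-211-5p deviations from group means gave -0.11. For miR-764-5p and miR-204-5p, leaving out a library gave 0.13 to 0.62. The mean levels of the 8 members moved by less than the spread between libraries on TMM-scaled CPM and on the deposited TPM. No paired analysis was possible because the groups share no replicate number.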

Other observations

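The mir-204 precursor family row, in which reads on the hairpin outside the mature miRNAs may be counted, varied more than miR-204-5p. It stood at 24.3, 86.6 and 15.4 CPM in SS replicates 12, 13 and 14, at 36.0, 30.0 and 7.82 CPM in CS replicates 8, 9 and 10, at 144, 15.1 and 101 CPM in MS replicates 3, 4 and 23, and at 5.79, 7.78 and 15.9 CPM in MC replicates 16, 17 and 20. It entered no test. It is 1 of the 125 families whose profiles set the library sets.

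Over the 12 libraries, the summed level of the marker miRNAs ran from 387 to 3972 CPM for red blood cells (3 of 3 counted in every library), from 2972 to 9877 CPM for endothelium, from 392 to 1733 CPM for oligodendrocytes, from 4.63 to 195 CPM for microglia and leukocytes, from 27.0 to 87.4 CPM for muscle and from 9.04 to 2494 CPM for the liver miRNA miR-122-5p.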
